A study of Rattus norvegicus with 4 samples.

Results

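The genes described here are 39 members of the interferon response, taken by gene name from the authors' deposited comparison and joined by gene identifier to the deposited counts, out of 32883 genes in the count table. All 39 names were found, each with 1 identifier, and all 39 passed the filter on low counts. They cover the receptors for type I and type II interferon, the transcription factors below them, cytoplasmic RNA sensors and the induced antiviral proteins. Transcripts were measured by strand-specific RNA-seq of total RNA depleted of ribosomal RNA. The cells were neonatal rat ventricular cardiomyocytes, isolated from the ventricles of Sprague-Dawley rats at postnatal day 2, a primary culture widely used to study hypertrophic growth, from which cells that attach early, mostly not cardiomyocytes, had been removed by pre-plating. Cells treated with 20 µM phenylephrine (PE) for 24 h gave 2 libraries, and untreated control cells gave 2. PE is an agonist of alpha-1 adrenergic receptors and a common hypertrophic stimulus in these cells. No genotype or transgene is given for either group, and neither group was given interferon or a virus, as far as the labels say. The labels do not say that replicates were separate cultures, and p-values then reflect nothing beyond the spread among these libraries, which may be technical.

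Interferons are secreted cytokines that signal through paired receptor chains and the Janus kinases bound to them. The kinases activate STAT proteins, which, with Irf9, enter the nucleus and bind the interferon-stimulated response element (ISRE) in front of antiviral genes, while type II interferon acts mainly through the gamma-activated site (GAS). Many of these genes are also transcribed at a low level in cells that have met no virus, and the factor Irf7 amplifies the response by inducing further interferon.

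The libraries held 56948370 and 48075810 counts in PE replicates 1 and 2, and 51917449 and 45637881 in control replicates 1 and 2. Levels are given as CPM, the count of a gene scaled to the TMM-adjusted size of its library, and a pair of values always gives replicate 1 before replicate 2. A gene was called changed at a Benjamini-Hochberg adjusted p under 0.05 in edgeR's quasi-likelihood test over all 15257 genes tested, and each log2 fold change (PE over control) is given with its standard error (SE). The control libraries differed from each other more than the PE libraries did, at a chi-square of 19.8 per degree of freedom for the PE pair and 133 for the control pair. Mitochondrial-genome transcripts took 4.61% and 4.76% of counts in PE libraries, against 6.19% and 11.7% in control libraries. The 10 cardiomyocyte markers summed to 13070 and 13960 CPM in PE libraries, against 13840 and 15210 CPM in control libraries. Markers of other cells were present too. The 17 macrophage markers summed to 337 and 322 CPM in PE libraries, against 485 and 551 CPM in control libraries. The 10 fibroblast markers summed to 10120 and 10030 CPM with PE, against 18260 and 16420 CPM without it. The largest values in that sum were those of Col1a1, Col3a1 and Postn, each lower in both PE libraries than in both controls. Dcn, Lum and Tcf21 had overlapping groups and positive log2 fold changes (0.50, 0.11 and 0.04), so the sum does not stand for every fibroblast marker. The 11 endothelial markers summed to 403 and 456 CPM with PE, against 495 and 464 CPM without it. The 6 mesothelial markers summed to 92.4 and 107 CPM with PE, against 210.2 and 172 CPM without it. Of 7 lymphocyte markers, 5 were at 0 in all libraries.

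PE changed 7 of the 39 genes, in both directions. Ifit1bl, Rsad2 and Ifngr1 were higher, and Irf7, Usp18, Dhx58 and Igtp were lower. That share, 17.9%, stands beside 15.7% of all genes tested, of which 7.39% were higher and 8.3% lower in PE. The members that did not pass, 32 in number, mostly had small negative values. The log2 fold change was negative in 28 of the 39 genes, or 71.8%, against 50.7% of all genes tested, and its median was -0.29 over the 39 genes and -0.01 over all genes. At an unadjusted p under 0.05 there were 15 of the 39, or 38.5%, against 28.8% of all genes. The PE and control values did not overlap in 26 genes, with both PE libraries below both controls in 20 and above them in 6. Among all genes tested 56.7% did not overlap, with 28.1% below and 28.5% above. In bulk RNA, fewer cells of a type and less RNA per cell cannot be told apart, and markers of several other cell types moved as well. The 16 macrophage markers tested all had negative log2 fold changes, with a median of -0.64 and 7 lower in PE. Of 11 endothelial markers 5 were lower and 1 was higher (median -0.66), and of 6 mesothelial markers 3 were lower (median -0.69). Of 9 fibroblast markers tested 3 were lower (median -0.59), with 6 negative and 3 positive values. Of 10 cardiomyocyte markers 1 was higher and 0 were lower (median -0.27). Of 6 mural markers 1 was higher and 1 was lower (median -0.28). The part of these markers in the results on the 39 genes was not tested.

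**Figure D1:**
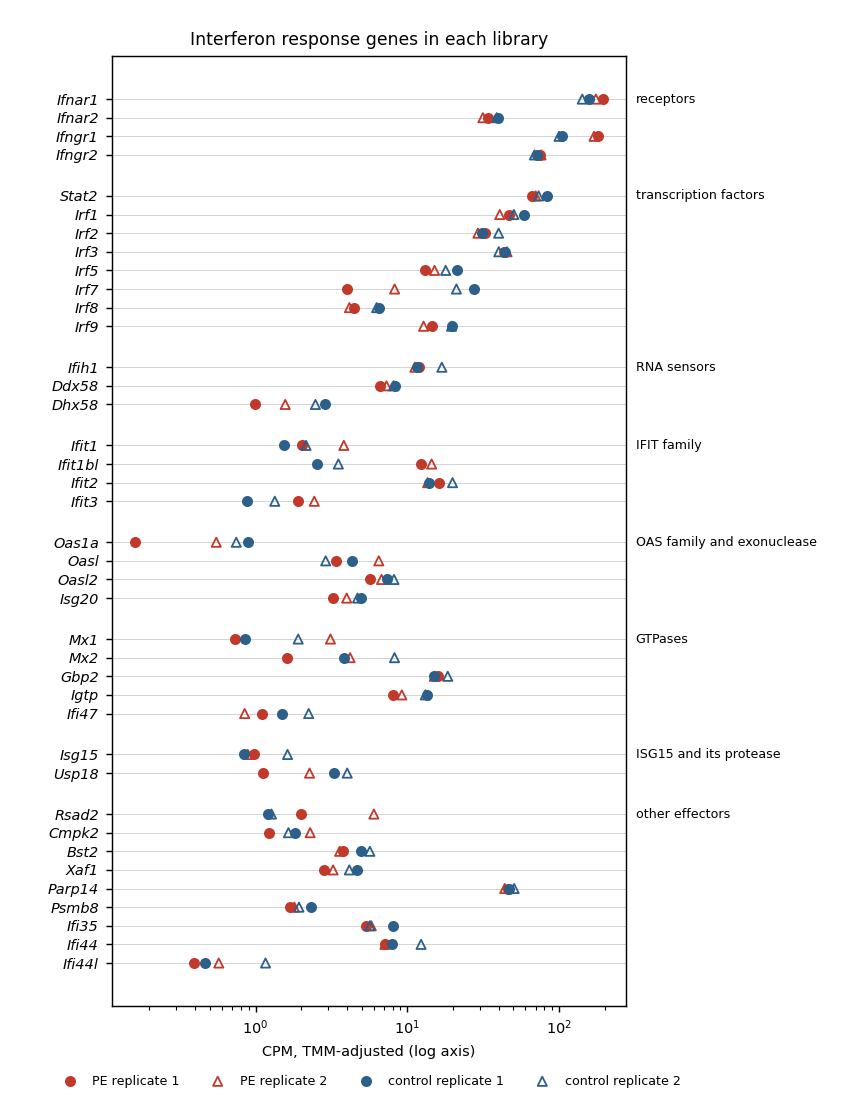
Level of each of the 39 genes in each library, as TMM-adjusted CPM on a log axis, grouped by role; red marks are PE libraries and blue marks control libraries, with filled circles for replicate 1 and open triangles for replicate 2. Irf7 and Ifit1bl stand out with a wide gap between the groups, whereas Mx1 and Mx2 spread as far within a group as between groups.

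Promoter windows were available in RefSeq (build GRCr8) for 31 of the 39 genes, as 32 windows that run from 250 bases before the annotated start to 50 bases after it. A core of the ISRE, a pair of GAAA blocks with 2 bases of any kind between them, was searched on both strands and reads as a pair of TTTC blocks where it lies on the opposite strand. It was found in 16 of the 32 windows, against 3.92% of the 33469 windows in the table. The GAS core TTCNNNGAA, which is its own reverse complement, was found in 11 windows, or 34.4%, against 8.87% of all windows. Both were found in 6 genes and neither in 10, and the motifs shared bases only in Bst2. Of the changed genes, Irf7, Igtp, Rsad2 and Ifit1bl held the ISRE core and Ifngr1 did not. Dhx58 and Usp18, both lower in PE, had no window to search. Ifit1bl has 2 windows, and the core lies only in the window shown. The 250 bases before the start of those 4 genes are shown because their responses to PE went in opposite directions although each holds the core, printed here in capitals.
Irf7 (GRCr8, chr1:205800024-205800273, minus strand): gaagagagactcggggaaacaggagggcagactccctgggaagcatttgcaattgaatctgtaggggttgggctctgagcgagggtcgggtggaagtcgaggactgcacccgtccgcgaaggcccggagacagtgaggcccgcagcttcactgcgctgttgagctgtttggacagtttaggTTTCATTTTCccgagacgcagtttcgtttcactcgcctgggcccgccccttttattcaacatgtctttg
Igtp (GRCr8, chr10:42874797-42875046, plus strand): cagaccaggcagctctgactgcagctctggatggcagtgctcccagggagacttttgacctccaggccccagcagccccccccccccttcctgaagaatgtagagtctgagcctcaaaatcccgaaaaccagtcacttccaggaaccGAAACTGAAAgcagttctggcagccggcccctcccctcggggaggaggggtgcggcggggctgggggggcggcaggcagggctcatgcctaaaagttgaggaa
Rsad2 (GRCr8, chr6:48788121-48788370, minus strand): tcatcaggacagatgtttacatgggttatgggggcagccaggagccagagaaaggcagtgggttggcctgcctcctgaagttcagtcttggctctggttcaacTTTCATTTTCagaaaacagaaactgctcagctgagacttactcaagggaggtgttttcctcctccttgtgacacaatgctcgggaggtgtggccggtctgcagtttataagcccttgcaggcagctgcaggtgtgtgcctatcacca
Ifit1bl (GRCr8, chr1:241543556-241543805, minus strand): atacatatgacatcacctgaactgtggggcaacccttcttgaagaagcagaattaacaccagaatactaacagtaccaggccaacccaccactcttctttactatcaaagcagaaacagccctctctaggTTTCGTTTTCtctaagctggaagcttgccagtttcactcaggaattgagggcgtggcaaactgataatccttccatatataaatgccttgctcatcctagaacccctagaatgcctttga
The core began 69 bases before the start of Irf7, 103 bases before that of Igtp, 147 bases before that of Rsad2 and 120 bases before that of Ifit1bl. It lay on the strand of the gene in Igtp and on the opposite strand in the other 3. Read on its own strand, the core was GAAAATGAAA in both Irf7, which was lower in PE, and Rsad2, which was higher. A match is a description of the letters and not of a bound site.

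Among the receptor genes, Ifngr1 was higher in PE. Ifngr1 (ENSRNOG00000012074), the ligand-binding chain of the receptor for interferon gamma, had 180.1 and 169.7 CPM in PE libraries, against 104 and 99.8 CPM in control libraries. Both PE values lay above both control values, and each pair was close. The log2 fold change was 0.78 ± 0.16 (SE; edgeR adjusted p = 0.0071), with a 95% interval of 0.43 to 1.13. It was 0.74 without PE replicate 1 (edgeR adjusted p = 0.214) and 0.83 without PE replicate 2 (edgeR adjusted p = 0.124), so the value moved little while the call was lost. Its signalling partner Ifngr2 was at 0.10 ± 0.16 and did not pass. Of the chains of the type I receptor, Ifnar1 was at 0.30 ± 0.16 (edgeR adjusted p = 0.264) and Ifnar2 at -0.26 ± 0.16 (edgeR adjusted p = 0.324). Ifnar1 passed without control replicate 1, at 0.38. Fits that lack a control library take their spread from the PE pair alone, and fits that lack a PE library take it from the control pair alone.

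Of the 8 transcription factors, Irf7 was lower in PE and the other 7 did not pass. Irf7 (ENSRNOG00000017414), the factor that amplifies interferon production, had 4.01 and 8.24 CPM in PE libraries, against 27.7 and 21.0 CPM in control libraries. Every PE value was below every control value, although the PE values themselves differed 2.06-fold. The log2 fold change was -1.996 ± 0.31 (SE; edgeR adjusted p = 0.0017), a level 3.99-fold lower in PE. Irf7 was called without each of the 4 libraries in turn, at -2.60 to -1.56.

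The remaining transcription factors gave smaller values. Irf9, the DNA-binding subunit of the complex that binds the ISRE, was at -0.52 ± 0.18 (edgeR adjusted p = 0.081), and its partner Stat2 was at -0.19 ± 0.16 (edgeR adjusted p = 0.488). Irf8, a factor of the myeloid lineage, had 4.42 and 4.15 CPM in PE libraries, against 6.54 and 6.28 CPM in control libraries. Its groups did not overlap, and the log2 fold change was -0.58 ± 0.21 (edgeR adjusted p = 0.0879). Irf5, which acts in inflammatory signalling, was at -0.47 ± 0.19 (edgeR adjusted p = 0.128). Irf1, an activator induced by interferon gamma, and Irf2, which competes with it for the same sites, were at -0.32 and -0.20. Irf3, which induces interferon genes after a virus is sensed, was at 0.08. Irf9 passed without control replicate 1 or 2 (-0.51 and -0.52), and Irf1, Irf5 and Irf8 passed without control replicate 2 (-0.42, -0.58 and -0.61). The part of the macrophage markers given above in the values of Irf5 and Irf8, neither of which passed, was not tested.

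**Figure D2:**
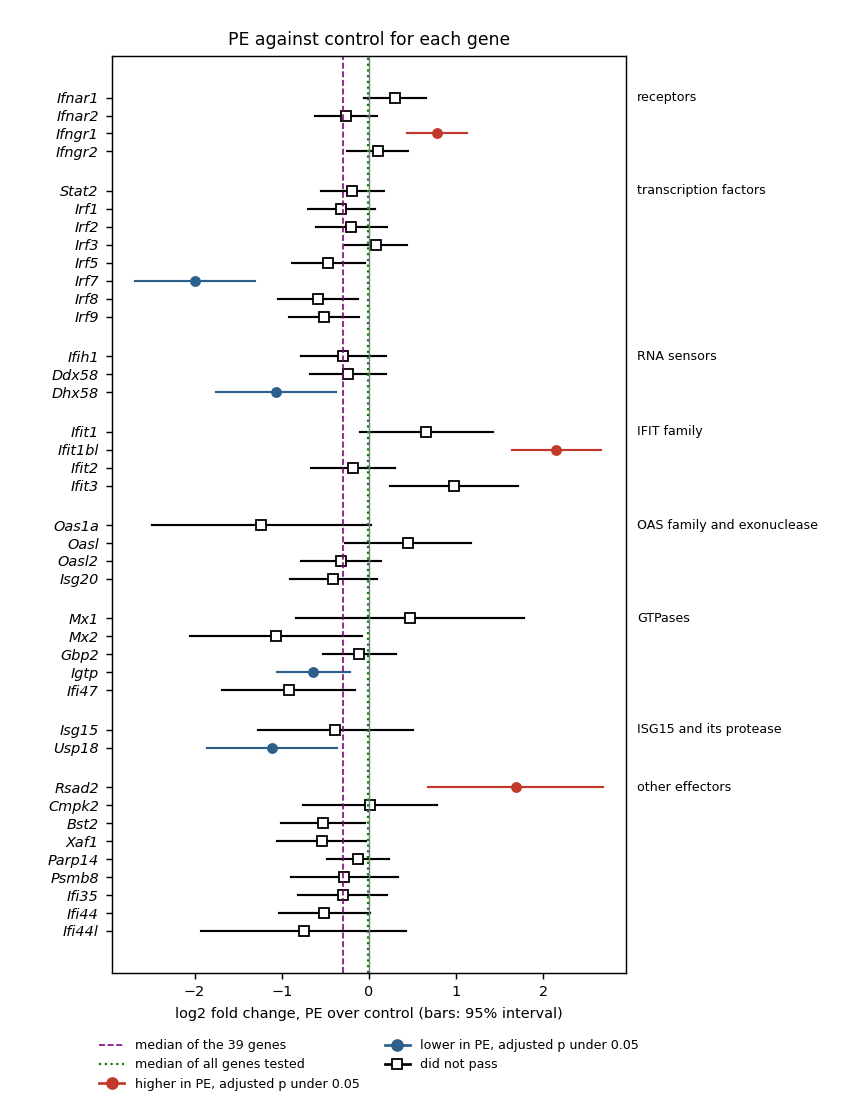
Log2 fold change of each of the 39 genes, PE over control, with bars for the 95% interval; filled red and blue points passed an edgeR adjusted p under 0.05 as higher and lower in PE, and open squares did not pass. The dashed line marks the median of the 39 genes at -0.29 and the dotted line the median of all genes tested at -0.01.

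Of the 3 cytoplasmic RNA sensors, Dhx58 was lower in PE and the others did not pass. Dhx58 (ENSRNOG00000018247), which encodes LGP2, a regulator of the other sensors, had 0.998 and 1.57 CPM in PE libraries, against 2.87 and 2.48 CPM in control libraries. The groups did not overlap, and all 4 values rested on 56 to 154 counts. Its log2 fold change was -1.07 ± 0.31 (SE; edgeR adjusted p = 0.0424). The call was close to the threshold and was lost without PE replicate 1 (-0.77, edgeR adjusted p = 0.387) and with DESeq2 (adjusted p = 0.0573). Ddx58, which encodes the sensor RIG-I, was at -0.24 ± 0.19 (edgeR adjusted p = 0.466). Ifih1, which encodes the sensor of long double-stranded RNA, was at -0.29 ± 0.22 with overlapping groups (edgeR adjusted p = 0.428), at 0.01 without control replicate 2 and at -0.54 without control replicate 1, where it passed.

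The IFIT family, whose proteins bind RNA that lacks the marks of host RNA, had a positive median log2 fold change of 0.82 over 4 genes, and 1 of them passed. Ifit1bl (ENSRNOG00000036603), a gene of the Ifit1 type, had 12.4 and 14.4 CPM in PE libraries, against 2.55 and 3.51 CPM in control libraries. The gap between the groups was wide, and replicate 2 was 1.17 times replicate 1 in PE libraries and 1.375 times in control libraries. PE over control, the log2 fold change was 2.15 ± 0.23 (SE; edgeR adjusted p = 0.0002), a level 4.43-fold higher in PE. It was called without each of the 4 libraries in turn, at 1.94 to 2.39. Ifit3 (ENSRNOG00000022839) had 1.91 and 2.44 CPM in PE libraries, against 0.876 and 1.34 CPM in control libraries. Its groups did not overlap, yet its log2 fold change of 0.98 ± 0.33 (SE) did not pass (edgeR adjusted p = 0.0755). It passed without control replicate 2, at 1.31, and with no filter on low counts (edgeR adjusted p = 0.0147). Ifit1 was at 0.66 ± 0.34 (edgeR adjusted p = 0.241), and passed without control replicate 2, at 0.91. Ifit2 was at -0.18 ± 0.22 (edgeR adjusted p = 0.638), at 0.10 without control replicate 2. In the GRCr8 annotation Ifit1 and Ifit1bl overlap, and the family members resemble each other. How reads, which were counted on the older build Rnor_6.0, were divided between Ifit1bl, Ifit1 and Ifit3 is uncertain.

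None of the 4 genes of the OAS family and the exonuclease Isg20 passed in edgeR, with 0 at an unadjusted p under 0.05 and 0 called by DESeq2. Oas1a (ENSRNOG00000001369), an oligoadenylate synthetase that activates the latent ribonuclease of the antiviral response, had 0.160 and 0.551 CPM in PE libraries, against 0.894 and 0.746 CPM in control libraries. The groups did not overlap, but the values rested on 9 and 26 counts in PE libraries, against 48 and 34 counts in control libraries. Its log2 fold change was -1.23 ± 0.56 (SE; edgeR adjusted p = 0.181), and it passed without PE replicate 2 (-2.33) and was at -0.57 without PE replicate 1. Oasl was at 0.45 ± 0.33, at -0.09 without PE replicate 2 and at 0.76 without control replicate 1, where it passed. Oasl2 was at -0.32 ± 0.20 and Isg20, which degrades RNA, at -0.41 ± 0.22.

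Of the 5 interferon-induced GTPases, Igtp was lower in PE and the other 4 did not pass. Igtp (ENSRNOG00000027008), an immunity-related GTPase that acts on the vacuoles of intracellular pathogens in mice, had 7.98 and 9.19 CPM in PE libraries, against 13.6 and 13.1 CPM in control libraries. The groups did not overlap and the control values were nearly equal. Its log2 fold change was -0.64 ± 0.19 (SE; edgeR adjusted p = 0.047). Igtp lost the call without PE replicate 1 (-0.53, edgeR adjusted p = 0.533) and without PE replicate 2 (-0.73, edgeR adjusted p = 0.252). Ifi47 (ENSRNOG00000002470), of the same GTPase family, had 1.11 and 0.847 CPM in PE libraries, against 1.49 and 2.24 CPM in control libraries. These groups did not overlap either, and the log2 fold change was -0.92 ± 0.34 (SE; edgeR adjusted p = 0.103). Ifi47 passed without control replicate 1, at -1.18, and with no filter on low counts (edgeR adjusted p = 0.0337). Gbp2, a guanylate-binding protein, was at -0.11 ± 0.19, and at 0.05 without control replicate 2.

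The dynamin-like GTPases Mx1 and Mx2, which block viral replication, varied more between replicates than most of the 39 genes. Mx1 had 0.731 and 3.11 CPM in PE libraries, against 0.857 and 1.91 CPM in control libraries. Mx2 had 1.604 and 4.19 CPM in PE libraries, against 3.84 and 8.23 CPM in control libraries. Replicate 2 was the higher of the pair in both groups and for both genes, and the groups overlapped. Mx1 was at 0.47 ± 0.59 (edgeR adjusted p = 0.657), ranging from -0.90 without PE replicate 2 to 1.19 without PE replicate 1, with -0.01 without control replicate 1 and 1.145 without control replicate 2, where it passed. Mx2 was at -1.06 ± 0.44 (edgeR adjusted p = 0.143), and passed without PE replicate 2 (-1.90), without control replicate 1 (-1.52) and with no filter on low counts (edgeR adjusted p = 0.0002). With no filter the value of Mx2 stayed at -1.06, so only the adjusted p moved. The similarity of Mx1 and Mx2 leaves the division of reads between them uncertain.

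Isg15 and Usp18 act on the same modification. Isg15 is a ubiquitin-like protein that is attached to other proteins, and Usp18 removes it and also restrains signalling at the type I receptor. Usp18 (ENSRNOG00000037198) had 1.12 and 2.27 CPM in PE libraries, against 3.28 and 4.02 CPM in control libraries. Both PE values were below both control values, with a 2.02-fold difference between the PE libraries. Its log2 fold change was -1.11 ± 0.33 (SE; edgeR adjusted p = 0.0487). Usp18 was at -0.68 without PE replicate 1 (edgeR adjusted p = 0.414) and at -1.69 without PE replicate 2, and with upper-quartile factors it did not pass (edgeR adjusted p = 0.0531). Isg15 had 0.980 and 0.890 CPM in PE libraries, against 0.839 and 1.62 CPM in control libraries. Its PE values lay between the control values, and its log2 fold change of -0.39 ± 0.40 did not pass (edgeR adjusted p = 0.58) and was 0.16 without control replicate 2.

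Of the 9 other effectors, Rsad2 was higher in PE and 8 did not pass. Rsad2 (ENSRNOG00000007539), which encodes viperin, an antiviral enzyme that makes a chain-terminating nucleotide, had 2.00 and 6.02 CPM in PE libraries, against 1.21 and 1.27 CPM in control libraries. The groups did not overlap, but PE replicate 2 was 3.02-fold above PE replicate 1. The log2 fold change was 1.68 ± 0.45 (SE; edgeR adjusted p = 0.0301). Its value was 0.69 without PE replicate 2 (edgeR adjusted p = 0.5) and 2.28 without PE replicate 1. Cmpk2, a nucleotide kinase that supplies the substrate of viperin, had 1.23 and 2.29 CPM in PE libraries, against 1.83 and 1.65 CPM in control libraries. Its groups overlapped, and its log2 fold change was 0.01 ± 0.35 (edgeR adjusted p = 0.991), or -0.04 with library sizes alone and -0.02 with upper-quartile factors, -0.49 without PE replicate 2, 0.40 without PE replicate 1 and -0.06 without control replicate 2.

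The other effectors mostly had negative values. Bst2, or tetherin, which holds budding virus at the cell surface, was at -0.53 ± 0.22 (edgeR adjusted p = 0.135), and Xaf1, which promotes cell death, at -0.54 ± 0.23 (edgeR adjusted p = 0.147). Ifi44 and Ifi44l, related induced proteins, were at -0.51 ± 0.24 and -0.75 ± 0.53. Ifi35 was at -0.30, Psmb8, a catalytic subunit of the immunoproteasome, at -0.28, and the ADP-ribosyltransferase Parp14 at -0.12. Without control replicate 1, Bst2 passed at -0.62 and Ifi44 at -0.79. Ifi35 passed at -0.53 without control replicate 2, and Ifi44l was at 0.04 without it.

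**Figure D3:**
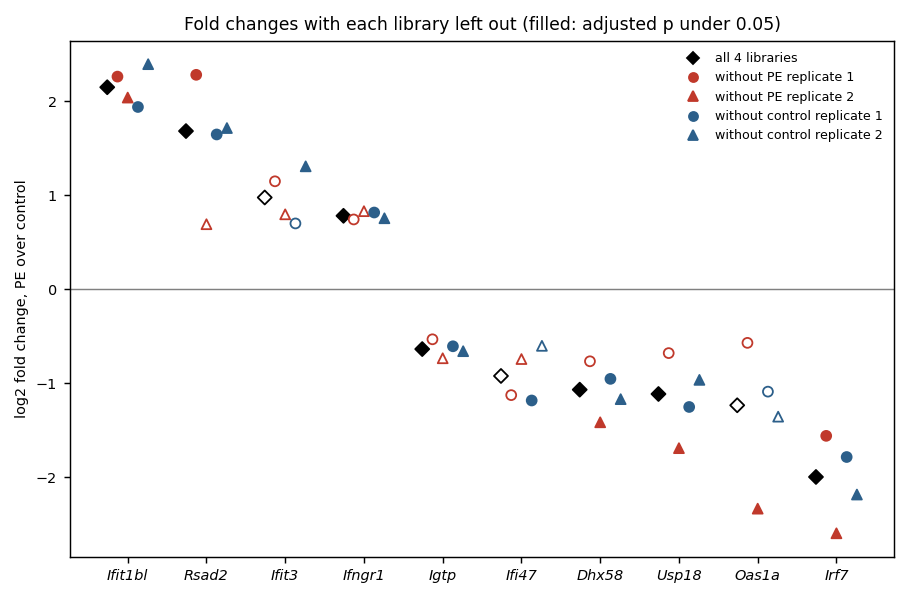
Log2 fold change, PE over control, with all 4 libraries and with each library left out. The 10 genes shown did not overlap between PE and control and differed at least 1.5-fold. Of all genes tested, 24.5% did so. Filled marks passed an edgeR adjusted p under 0.05. Ifit1bl stays between 1.94 and 2.39 and Irf7 between -2.60 and -1.56 with every mark filled, whereas Rsad2 is at 0.69 without PE replicate 2.

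Stability differed among the 7 changed genes. Ifit1bl and Irf7 were called without each of the 4 libraries in turn, and Ifngr1, Dhx58, Igtp, Usp18 and Rsad2 lost the call without at least 1 library. The number of the 39 genes that changed was 3 without PE replicate 1, 6 without PE replicate 2, and 15 without control replicate 1 or 2. Over all genes, the 2393 calls became 1205 without PE replicate 1, 1267 without PE replicate 2, 4708 without control replicate 1 and 4755 without control replicate 2. The median log2 fold change of the 39 genes was -0.34 to -0.24 over these fits. The authors' deposited table had 6 of the 39 genes at an adjusted p under 0.05, 3 higher and 3 lower, and all 6 were among the 7 found here. The gene that was not, Dhx58, had a log2 fold change of -1.06 and an adjusted p of 0.0573 in the authors' deposited table. For the 39 genes, the deposited values equal those of DESeq2 run here on the same 4 libraries. They are therefore not a second source. Over all genes, DESeq2 run here called 2555 of the 15231 given an adjusted p.

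The 39 genes also differed between replicates of 1 group, and by 1.5-fold or more only with replicate 2 higher, a comparison chosen after the values were seen. In PE libraries, replicate 2 was at least 1.5 times replicate 1 in 10 of the 39 genes, or 25.6%, against 4.75% of all genes tested. The 10 were Irf7, Dhx58, Ifit1, Oas1a, Oasl, Mx1, Mx2, Usp18, Rsad2 and Cmpk2. None of the 39 differed that far the other way, against 4.73% of all genes. The ratio of replicate 2 to replicate 1 in PE libraries ran from 0.767 for Ifi47 to 4.26 for Mx1, with a median of 1.08. In control libraries, replicate 2 was at least 1.5 times replicate 1 in 7 of the 39, or 17.9%, against 11.1% of all genes. Those were Ifit3, Mx1, Mx2, Ifi47, Isg15, Ifi44 and Ifi44l, so Mx1 and Mx2 were in both sets. None went the other way by that much, against 7.77% of all genes. Of the members with a mean up to 10 CPM, 9 of 23, or 39.1%, were higher by that factor in PE replicate 2, against 6.87% of the 4439 genes tested in the same range of means. The median biological coefficient of variation per gene was 0.158 over the 39 genes and 0.150 over all genes.

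**Figure D4:**
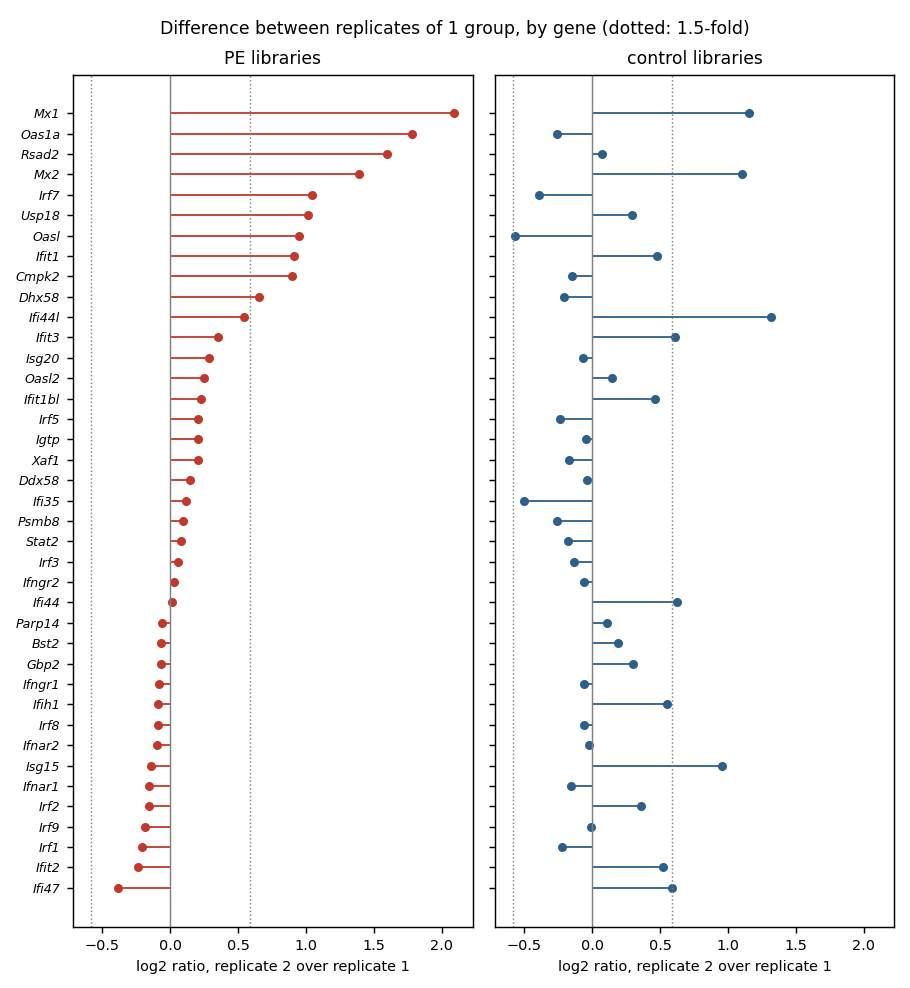
Log2 ratio of replicate 2 over replicate 1 for each of the 39 genes, in PE libraries on the left and in control libraries on the right; dotted lines mark a 1.5-fold difference. In PE libraries 10 genes lie to the right of the dotted line, led by Mx1 at a ratio of 4.26, and 0 lie beyond the dotted line on the left. Of those 10, Irf7, Dhx58, Oas1a, Oasl and Cmpk2 have replicate 1 higher in control libraries, by less than 1.5-fold.

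The rest of the pathway was read from lists of 84 other interferon genes found in the count table, of which 70 passed the filter. Of these 70, 3 were higher in PE, 8 were lower and 59 did not pass. The share changed, 15.7%, equalled that of all genes tested at the digits given. Their list had a median log2 fold change of -0.23 against -0.01 over all genes tested. None of the 6 ligand genes passed the filter. Counts were 0 and 1 for Ifnb1 in PE libraries, against 0 and 0 in control libraries, and 0 and 0 for Ifng in PE libraries, against 0 and 1 in control libraries. Ifna4, Ifnk and Ifnl3 had 0 counts in every library, which allows up to 0.0534 and 0.0635 CPM in PE libraries and up to 0.0559 and 0.0658 CPM in control libraries (3 counts per library, counting error only). Interferon epsilon, Ifne, had 13 and 7 counts in PE libraries, against 0 and 1 in control libraries, and did not pass the filter with all 4 libraries. Without control replicate 2, which leaves a control library at 0 counts, it was tested and called. Of 11 genes of receptor kinases, STATs and SOCS proteins, 1 was lower. This was Ptpn6, a phosphatase that damps cytokine signalling in blood cells, at -0.85 ± 0.19 (edgeR adjusted p = 0.0135). The kinases Jak1 and Tyk2, which sit on the receptor chains, were at -0.06 ± 0.16 and -0.13 ± 0.19 and did not pass, with Tyk2 at 0.11 without control replicate 1. Of 11 adaptors and kinases of nucleic acid sensing, Mavs, the mitochondrial adaptor through which the RNA sensors signal, was lower at -0.62 ± 0.16 (edgeR adjusted p = 0.0273).

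Of 34 other interferon-induced genes, 2 were higher and 4 lower, or 17.6% changed, near the 15.7% of all genes tested. The chemokine gene Ccl5 had 0.178 and 0.360 CPM in PE libraries, against 1.55 and 1.25 CPM in control libraries, a log2 fold change of -2.39 ± 0.46 (edgeR adjusted p = 0.0057). The chemokine gene Cxcl11 had 1.27 and 0.720 CPM in PE libraries, against 3.24 and 4.61 CPM in control libraries, at -1.97 ± 0.33 (edgeR adjusted p = 0.003). Both chemokine genes were lower in each PE library than in each control library. The 2 higher genes were Slfn2, which keeps immune cells quiescent in mice, at 1.03 ± 0.17 (edgeR adjusted p = 0.0026), and Gbp4, a guanylate-binding protein, at 1.58 ± 0.47 (edgeR adjusted p = 0.0472). Of 12 genes of antigen presentation, 11 had negative values, or 91.7% against 50.7% of all genes tested, with a median of -0.38. Only 2 of the 12 were called lower, or 16.7% changed, near the 15.7% of all genes tested. These were Cd74, the invariant chain of MHC class II, at -2.01 ± 0.42 (edgeR adjusted p = 0.0091), and Nlrc5, the activator of MHC class I genes, at -1.20 ± 0.25 (edgeR adjusted p = 0.0098). Cd74 had 20 and 15 counts in PE libraries, against 59 and 75 counts in control libraries.

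Several of these calls were lost when a library was left out, with values that kept their direction. Ptpn6 lost the call without PE replicate 1 (-0.71, edgeR adjusted p = 0.295) and without PE replicate 2 (-0.98, edgeR adjusted p = 0.0705). Mavs did so without PE replicate 1 (-0.61, edgeR adjusted p = 0.409) and without PE replicate 2 (-0.61, edgeR adjusted p = 0.392). Without PE replicate 1, Slfn2 was at 0.89 (edgeR adjusted p = 0.0861) and Nlrc5 at -0.97 (edgeR adjusted p = 0.108). Gbp4 was at 1.82 without PE replicate 1 (edgeR adjusted p = 0.0693), 1.32 without PE replicate 2 (edgeR adjusted p = 0.33) and 1.27 without control replicate 2 (edgeR adjusted p = 0.0749), and did not pass with DESeq2 (adjusted p = 0.0821). The 11 calls over these lists became 5 without PE replicate 1, 6 without PE replicate 2, 31 without control replicate 1 and 26 without control replicate 2. Ptpn6 and Cd74 are transcribed in blood cells. The 16 tested macrophage markers also had negative log2 fold changes, of which 7 were called lower and 9 did not pass. The part of those markers in these values was not tested.

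**Figure D5:**
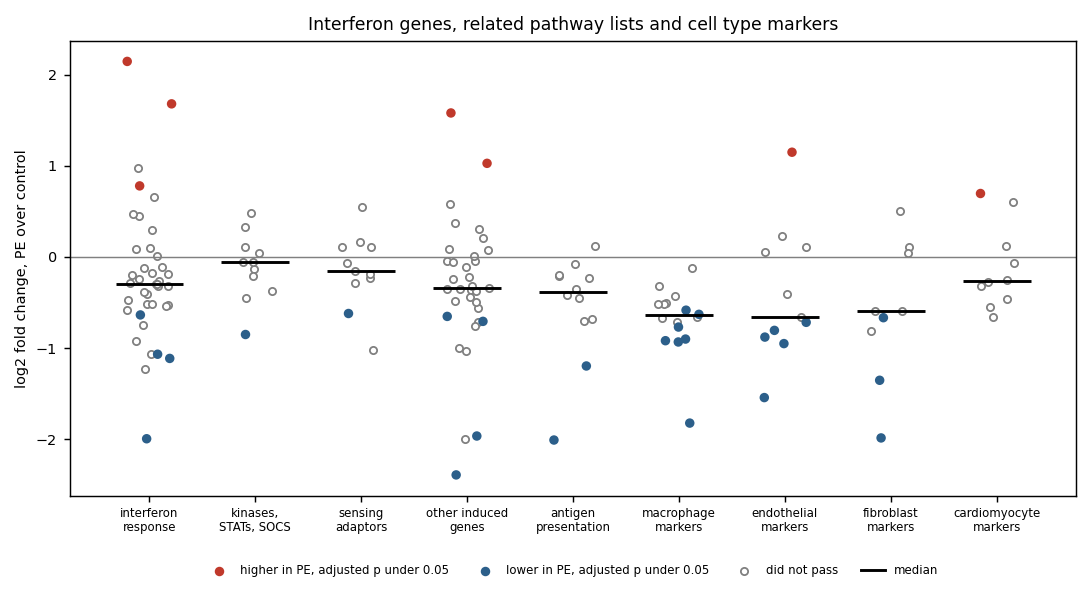
Log2 fold change, PE over control, of each tested gene in the 39 interferon response genes, in 4 other lists of the pathway and in 4 lists of cell type markers; red and blue points passed an edgeR adjusted p under 0.05 as higher and lower in PE, open points did not pass, and black lines are medians. The medians lie at -0.29 for the 39 genes, -0.38 for antigen presentation, -0.64 for the macrophage markers and -0.27 for the cardiomyocyte markers. No macrophage marker lies above 0.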

How the data were processed

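The deposited count table holds raw counts of reads per gene for each of the 4 libraries, made by the authors. Cutadapt 2.0, STAR 2.4.2a, featureCounts 1.6.4 and the build Rnor_6.0 are named, per the submitters' processing notes. Parameters, the annotation release and whether counting used the strand were not given in these sources. The authors' deposited comparison table gives per gene a mean normalised count (a signal), the log2 fold change with a standard error, a test statistic (a score) and p-values before and after adjustment, per the file headers. It supplied the gene names.

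The deposited counts were not altered. Of 32883 genes, 12217 were at 0 in all libraries and 15257 passed edgeR's default filter by group (minimum count 10, minimum total 15). The test was edgeR 4.0.16's quasi-likelihood F test with TMM factors (limma 3.58.1, R 4.3.3), with 2 residual and 8.1 prior degrees of freedom and a common biological coefficient of variation of 0.157; it was first tested on simulated data. Tables were made with pandas 2.3.3 in Python 3.11.15 and figures with matplotlib 3.10.9. The TMM factors were 0.986 and 0.982 for PE libraries, against 1.03 and 0.999 for control libraries. With 2 libraries a group, no permutation test of a single gene could reach 0.05. The counts of each pair differed by more than sampling noise, so none was treated as a repeat deposit. Groups came from the treatment label, since the protocol text names PE for all samples.

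The 39 genes, the other pathway lists and the markers were chosen with earlier results of these data known. Every member is named. Full statistics are given for members that passed and for those whose groups did not overlap and differed at least 1.5-fold, and of the other lists up to 4 changed genes each by absolute log2 fold change, with Jak1 and Tyk2 always; some genes that this rule names are not reported here. Reads shared between similar or overlapping genes (Ifit1, Ifit1bl and Ifit3; Mx1 and Mx2; Oas1a, Oasl and Oasl2) are uncertain, as are those of antisense partners. Promoter windows, matched by symbol, are RefSeq's on GRCr8, and none was used for Irf2, Ddx58, Dhx58, Ifit1, Ifit2, Mx2, Isg15 and Usp18. Alternatives were DESeq2 1.42.0, library sizes alone, upper-quartile factors, no filter, mitochondrial genes left out, each library left out and a replicate block.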

Additional observations from a re-analysis of the deposited data

How the results depend on the processing

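The test reported gave 7 calls among the 39 genes. There were 6 to 10 with DESeq2, library sizes alone, upper-quartile factors, no filter or mitochondrial genes left out. Over all genes those settings gave 2335 to 3189 calls, against 2393 in the test reported. Leaving out 1 library each gave 3 to 15 calls among the 39 genes, 5 to 31 among the other pathway genes, 3 to 8 role groups with a changed member, and 1205 to 4755 over all genes. With no filter the other pathway genes gave 18 calls, against 11, and all genes gave 3189, against 2393. That setting hardly moved the log2 fold changes of members, but it moved the edgeR adjusted p of genes well above the filter too. For Irf7 it fell from 0.0017 to 1.1e-17 and for Mx2 from 0.143 to 0.0002, while for Ifnar1 it rose from 0.264 to 0.345. Of 500 values of single genes under these alternatives, 442 kept direction and side of the threshold, 22 no longer passed, 22 newly passed and 14 changed sign. The sign changes concern 9 genes that did not pass. Cmpk2 was at -0.039 with library sizes alone, -0.016 with upper-quartile factors and -0.043 with the replicate block. With each library left out in turn, values ran from -0.49 to 0.40 for Cmpk2, -0.54 to 0.011 for Ifih1, -0.41 to 0.10 for Ifit2, -0.089 to 0.85 for Oasl, -0.90 to 1.19 for Mx1, -0.25 to 0.048 for Gbp2, -0.79 to 0.16 for Isg15, -1.27 to 0.042 for Ifi44l and -0.33 to 0.11 for Tyk2. The cause was not tested, except that a fit without a control library has only the PE pair to estimate the spread from, and one without a PE library only the control pair.

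Same-numbered libraries did not deviate together (correlation -0.23), so the numbers were not taken as pairs. With the replicate number as a block, 1964 of all genes changed, 7 of the 39 (6 of them shared with the test reported, with Mx2 at -1.11 and edgeR adjusted p = 0.0046 in place of Igtp, at -0.64 and edgeR adjusted p = 0.143) and 9 other pathway genes, with the call of Mavs lost at -0.62 (edgeR adjusted p = 0.139). A crossed pairing, added after the data were seen, gave 4677 calls over all genes, 16 among the 39 genes and 29 among the other pathway genes.

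Depth limits the genes with few counts, such as Oas1a with 9 counts in PE replicate 1 and Ifi44l with 22, and the interferon genes themselves, which did not pass the filter. With 2 libraries a group and replicates not stated to be separate cultures, the spread between independent cultures is unknown. Levels were not compared between genes, since gene lengths of the files' build were not used here.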

Other observations

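Among the 39 genes, no pair of neighbours had both of its genes called. In the RefSeq gene table of GRCr8, which names all 39 genes, 7 pairs of them lie next to each other with no other protein-coding gene between, or overlap. Rsad2, which was higher in PE at 1.68 on the log2 scale, lies next to Cmpk2, which was at 0.01 and did not pass. Ifit1bl, higher at 2.15, overlaps Ifit1 (0.66, not passed) and lies next to Ifit3 (0.98, not passed), and Ifit3 lies next to Ifit2 (-0.18, not passed). Rsad2 was at 0.69 without PE replicate 2, and the division of reads between Ifit1bl, Ifit1 and Ifit3 is uncertain. The difference in response within a pair was not tested.

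Changed genes were found among those with the ISRE core in the promoter window and among those without it. Of 16 genes with the core, 2 were higher and 2 lower in PE, with a median log2 fold change of -0.37; of all genes tested 15.7% changed. Of 15 genes with a window and no core, 1 was higher and 0 were lower, with a median of -0.19. Dhx58 and Usp18, both lower in PE, had no window and are in neither set. The difference was not tested.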
